A study of Schizosaccharomyces pombe with 8 samples.

Results

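Ribosome biogenesis genes of the fission yeast Schizosaccharomyces pombe were examined as 69 of the 5165 genes in the expression table. They were the genes whose standard name is utp, nop, rrp, dbp, imp or enp followed by a number, together with mpp10 and nog1. All 69 passed the filter on low values (at least 10 normalized counts in at least 2 libraries), as did 5028 genes in all. The libraries came from 2 strains in 4 groups of 2 libraries each: the pgr1 deletion mutant treated with 1 mM H2O2 for 30 min, the untreated pgr1 mutant, wild type treated in the same way, and untreated wild type. The wild type was strain 972, and both strains grew in YE5S, a rich yeast medium, at 30 °C to an optical density (OD600) of 0.5. The mutant is a single deletion strain; the labels do not say whether it is 1 clone or whether a group's 2 libraries are separate cultures, and p-values therefore reflect the spread among libraries, which may be technical. Polyadenylated RNA was sequenced, and a value here is a normalized count, the read count of a gene divided by the size factor of its library.

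Ribosomes are built in the nucleolus from a long ribosomal RNA precursor made by RNA polymerase I. The small-subunit processome, a large assembly around the U3 small nucleolar RNA, folds and cuts the part that becomes the small subunit. A separate set of factors assembles the large subunit, RNA helicases unwind intermediates along both paths, and the exosome, a ring of subunits with attached ribonucleases, trims precursor ends and removes spacer RNA. In yeasts the messenger RNAs of these factors are known to be co-regulated and to fall when growth slows or stress sets in. The roles used below are largely those of the better studied budding yeast counterparts.

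By role the 69 genes comprised 32 of the small-subunit processome, 3 protein components of small nucleolar ribonucleoproteins (snoRNPs; nop10, nop56 and nop58), 12 large-subunit factors, 9 helicases, 8 exosome genes and rrp1402, annotated as Rrp14-C and left on its own. The remaining 4 matched the name pattern but are annotated with another function in this species. These are imp1 (importin alpha, nuclear import), imp2 (an F-BAR protein of the contractile ring), rrp1 (a DNA helicase) and rrp2 (a DNA translocase and SUMO-targeted ubiquitin ligase). The label thus held for 65 of the 69 by annotated product, and of those dbp5 is best known as a helicase of mRNA export.

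As a check of the labels, pgr1, which encodes glutathione reductase, had 92.9 and 105 normalized counts in the treated mutant, 159 and 91.4 in the untreated mutant, 7201 and 6792 in treated wild type and 4939 and 4805 in untreated wild type. The deposited values corresponded to 12026222 to 14125543 reads per library. For 7 of the 69 genes (rrp42, dbp10, nop2, rrp2, rrp7, mpp10 and utp24) more than 50% of the exon bases lie opposite a protein-coding gene on the other strand. The library kit marks strand, but the strand setting of the read counting is not given in the sources used here, so these 7 are marked uncertain.

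The share of reads taken by the 69 genes was lower in every treated library than in any untreated one. They took 0.592% and 0.616% of the reads in the treated mutant, 1.10% and 1.14% in the untreated mutant, 0.561% and 0.537% in treated wild type, and 1.49% and 1.58% in untreated wild type. The 2 untreated wild type libraries were highest, the 2 untreated mutant libraries lay between, and all 4 treated libraries were lowest, with both treated mutant libraries above both treated wild type libraries. In such bulk cultures, fewer cells with a transcript and less of it per cell cannot be told apart.

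The response to H2O2 was a broad fall in both strains. In the mutant 53 of the 69 genes fell and 6 rose, with a median log2 fold change of -0.77; of all genes tested, 32.5% fell and 35.7% rose. In wild type 62 of the 69 fell and 4 rose, with a median of -1.34, against 34.6% and 37.7% of all genes. Falls of at least 2-fold were seen for 20 genes in the mutant and 45 in wild type, where 7.9% and 11.8% of all genes fell that far. The treated libraries lay below both untreated ones for 58 of the 69 genes in the mutant and for 64 in wild type, against 41.9% of all genes in either strain. Calls were made with limma at a Benjamini-Hochberg adjusted p below 0.05 over all 5028 genes, whose own median log2 fold change was 0.01 in the mutant and -0.00 in wild type. Of the falls, 50 in the mutant and 61 in wild type were called in each of the 8 fits that left out 1 library. Of the 4 rises in wild type, those of dbp5 and imp1 were not, and 2 rises were left without replicate 1 of untreated wild type, replicate 1 of treated wild type or either treated mutant library.

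**Figure D1:**
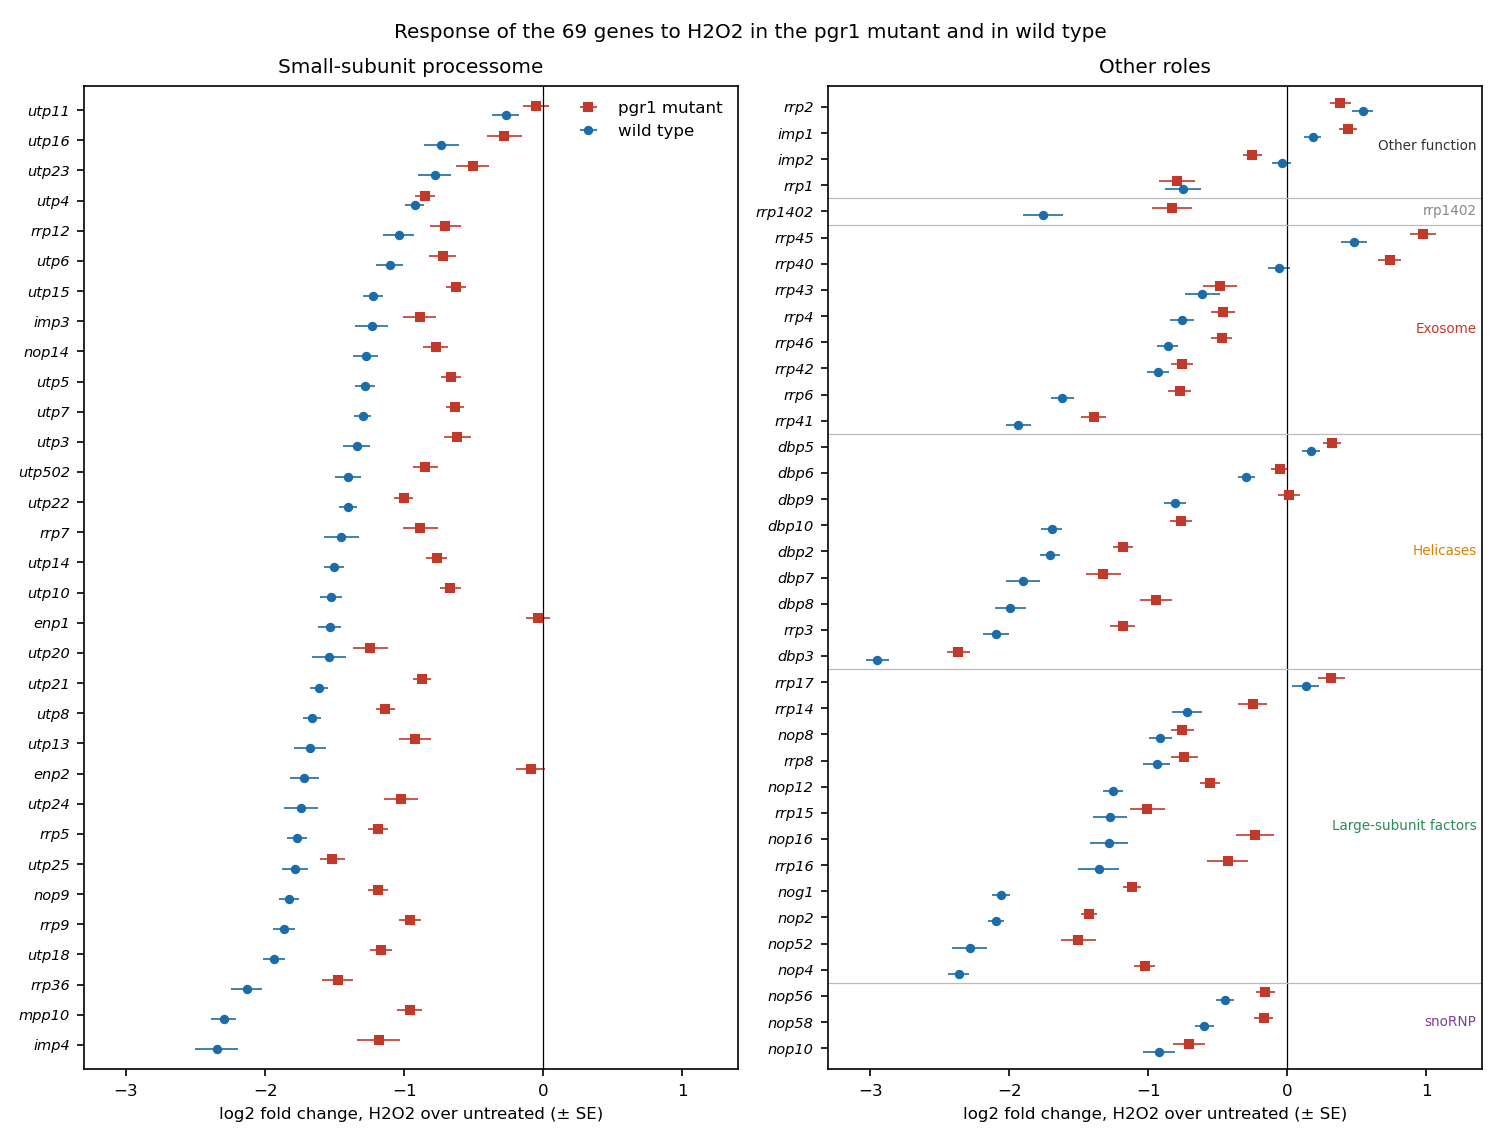
Log2 fold change with H2O2 (treated over untreated) for each of the 69 genes, in the pgr1 mutant (red squares) and in wild type (blue circles), with bars for ± 1 SE; the left panel holds the small-subunit processome and the right panel the other roles. Of the 69 wild type points 64 lie left of 0. In the left panel the mutant values nearest 0 are those of enp1, utp11 and enp2, at -0.04, -0.05 and -0.09.

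Genes of the small-subunit processome fell in both strains. All 32 of its genes fell in wild type, 28 of them at least 2-fold, with a median log2 fold change of -1.51. In the mutant 28 of the 32 fell, 10 of them at least 2-fold, with a median of -0.86. The exceptions in the mutant, where the fall did not pass the test, were enp1, enp2, utp11 and utp16. That of utp16, at -0.28, was called with the replicate number as a block and in the fit of the compared groups alone. It was also called, at -0.28, without either untreated wild type library.

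The largest falls of the class in wild type were those of imp4 and mpp10, whose products belong to the Mpp10 complex, a partner of U3 RNA. The gene imp4 had 582 and 581 normalized counts in the treated mutant, 1171 and 1493 in the untreated mutant, 422 and 353 in treated wild type and 1720.3 and 2249.9 in untreated wild type. The treated libraries of each strain lay far below the untreated ones, and treated wild type was lowest of all. Its log2 fold change was -1.18 ± 0.15 (SE) in the mutant and -2.35 ± 0.15 in wild type (limma adjusted p = 0.000135 and 1.16e-06). The gene mpp10 had 974 and 968 normalized counts in the treated mutant, 1907 and 1874 in the untreated mutant, 548 and 456 in treated wild type and 2385 and 2543 in untreated wild type. No 2 of the 4 groups overlapped, and treated wild type kept 20.4% of the untreated mean against 51.4% in the mutant. Since mpp10 lies opposite pnk1 over 95.2% of its exon bases, the values of pnk1 are given beside it: its mean was 292 ± 12.9 normalized counts in the treated mutant, 349.6 ± 0.0965 in the untreated mutant, 319 ± 9.3 in treated wild type and 279.9 ± 10.3 in untreated wild type. The gene of the other subunit, imp3, fell less, to 53.9% of the untreated mean in the mutant and 42.6% in wild type.

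The t-Utp or UTP-A group, which binds the precursor earliest, held 6 of the genes (utp4, utp5, utp502, utp8, utp10 and utp15), and UTP-B held 4 (utp6, utp13, utp18 and utp21). All 10 fell in both strains. UTP-A had a median log2 fold change of -0.76 in the mutant and -1.34 in wild type, and UTP-B of -0.90 and -1.65. These groupings were chosen after the values were seen and are given as a description. Within UTP-A, utp4 was the gene whose fall was most alike in the strains. It had 1346 and 1312 normalized counts in the treated mutant, 2527 and 2271 in the untreated mutant, 1803 and 1708 in treated wild type and 3319.8 and 3347 in untreated wild type. The mutant was below wild type in both conditions, and treatment left 55.4% of the untreated mean in the mutant and 52.7% in wild type. Its neighbour in the complex, utp10, had 1439 and 1650.4 normalized counts in the treated mutant, 2446 and 2451 in the untreated mutant, 1059 and 1123 in treated wild type and 3089 and 3189.8 in untreated wild type. For utp10 the treated mutant libraries lay above the treated wild type ones.

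At the ends of the range, utp25, a factor of the processome, had the largest fall of the class in the mutant, with a log2 fold change of -1.52 ± 0.09 there and -1.78 ± 0.09 in wild type. It had 349.6 and 401 normalized counts in the treated mutant, 1041 and 1106 in the untreated mutant, 457 and 438 in treated wild type and 1486 and 1604 in untreated wild type. The smallest fall in wild type was that of utp11, with 1037 and 1099 normalized counts in the treated mutant, 1051 and 1169 in the untreated mutant, 1069.5 and 1132 in treated wild type and 1228 and 1435 in untreated wild type. Its wild type log2 fold change of -0.27 ± 0.09 (limma adjusted p = 0.0275) lost the call without replicate 2 of untreated wild type, at -0.16, and without replicate 1 of treated wild type, at -0.23. The endonuclease gene utp24, which is opposite a coding gene over 50.3% of its exons, fell to 49.1% of the untreated mean in the mutant and 29.9% in wild type. That opposite gene, bem46, fell too, to 82.6% in the mutant and 75.3% in wild type.

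Within the class the response to H2O2 differed most between the strains for enp2 and enp1. The bystin-family product of enp1 stays with the small-subunit precursor until late cytoplasmic steps, and enp2 is a processome gene. In the mutant alone utp11, with a log2 fold change of -0.05, was nearer 0 than enp2, at -0.09. There were 1771 and 1903 normalized counts of enp1 in the treated mutant, 1759 and 2024 in the untreated mutant, 772 and 809 in treated wild type and 2211 and 2383 in untreated wild type. For enp2 the counts were 1461 and 1704 in the treated mutant, 1614 and 1749 in the untreated mutant, 586 and 578 in treated wild type and 1763 and 2091 in untreated wild type. For both genes the treated and untreated mutant libraries overlapped, while the treated wild type libraries lay far below all others. Treatment left 97.1% of the enp1 mean and 94.1% of the enp2 mean in the mutant, against 34.4% and 30.2% in wild type. Under quantile normalization both were called lower in the mutant too, at -0.27 for enp1 and -0.28 for enp2. In that scaling utp11 and utp16, at -0.12 and -0.15 in the mutant, did not pass the test.

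**Figure D2:**
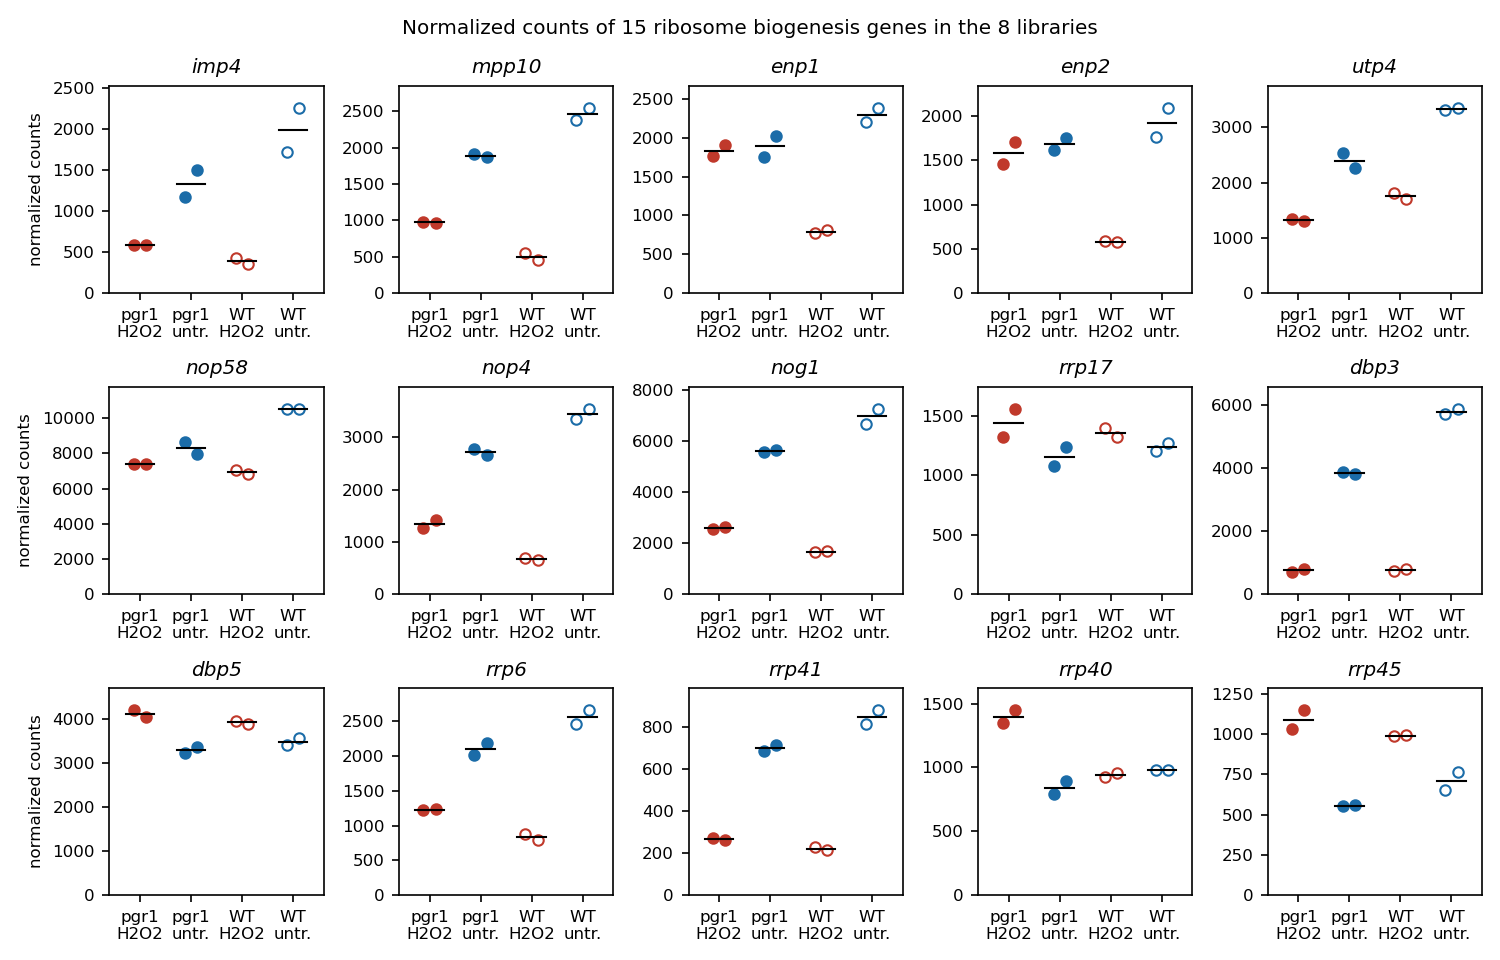
Normalized counts of 15 of the genes in each of the 8 libraries, with the 4 groups along each panel (treated mutant, untreated mutant, treated wild type, untreated wild type); points are libraries, lines are means of 2, and each axis starts at 0. For dbp3 the 4 treated libraries lie between 696 and 794, whereas for enp2 the treated mutant (1461 and 1704) lies far above treated wild type (586 and 578).

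The snoRNP genes had the highest levels per kilobase and, in the deposited scaling, the smallest median fall among the biogenesis roles. Per kilobase of exon, their median in untreated wild type was 5435 normalized counts, against 1539 for large-subunit factors, 1048 for helicases, 1043 for the small-subunit processome and 848 for the exosome. Nop56 and Nop58 are the core proteins of the box C/D particles that guide ribose methylation. The gene nop58 had 7378 and 7405 normalized counts in the treated mutant, 8649 and 7978 in the untreated mutant, 7073 and 6824 in treated wild type and 10514 and 10508 in untreated wild type. Untreated wild type stood above the other 3 groups, and the log2 fold change was -0.17 ± 0.07 in the mutant, which did not pass the test, and -0.60 ± 0.07 in wild type. For nop56 the corresponding values were -0.16 ± 0.07 in the mutant, which did not pass the test, and -0.45 ± 0.07 in wild type. Quantile normalization gave calls in the mutant for nop58 and nop56, at -0.56 and -0.60, and so did edgeR. In wild type it gave -1.01 for nop58 and -0.83 for nop56. Under it the median fall of the exosome genes was smaller than that of the snoRNP genes in both strains, so this ranking depends on the scaling. The gene nop10, for a small H/ACA protein, had 1066 and 1022 normalized counts in the treated mutant, 1595 and 1827 in the untreated mutant, 1394 and 1369.6 in treated wild type and 2314 and 2965 in untreated wild type. Of the 3 it was the one called in both strains, with a log2 fold change of -0.71 ± 0.11 in the mutant and -0.92 ± 0.11 in wild type, and its treated mutant libraries were the lowest.

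Of the 12 large-subunit factors 9 fell and 1 rose in the mutant, with a median log2 fold change of -0.75, and 11 fell in wild type, with a median of -1.28. The RNA-binding protein gene nop4 had 1266 and 1411 normalized counts in the treated mutant, 2779 and 2662 in the untreated mutant, 688 and 650.1 in treated wild type and 3356 and 3539 in untreated wild type. The 4 groups did not overlap, and the treated mutant kept 49.2% of its untreated mean against 19.4% in wild type. The GTPase gene nog1, which encodes a factor that stays with the large-subunit precursor from the nucleolus to the cytoplasm, had 2549 and 2629 normalized counts in the treated mutant, 5576 and 5627 in the untreated mutant, 1641 and 1687 in treated wild type and 6670.3 and 7236 in untreated wild type. Its order of groups was the same as that of nop4, with log2 fold changes of -1.11 ± 0.06 in the mutant and -2.06 ± 0.06 in wild type (limma adjusted p = 1.15e-06 and 1.4e-08).

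The largest fall of this class in the mutant was that of nop52, a nucleolar protein gene. It had 349.6 and 310.4 normalized counts in the treated mutant, 867 and 1008 in the untreated mutant, 303 and 241 in treated wild type and 1282 and 1363 in untreated wild type. The treated mutant libraries lay just above the treated wild type ones, a log2 difference of 0.28 ± 0.13 that did not pass the test. The gene nop2, for an rRNA methyltransferase, fell to 37.3% of the untreated mean in the mutant and 23.4% in wild type; its exons lie 61.2% opposite spt16, whose means were 3164 ± 44.6 normalized counts in the treated mutant, 2031 ± 145 in the untreated mutant, 2760.4 ± 112 in treated wild type and 1974 ± 15.4 in untreated wild type. The gene rrp17, for an rRNA exonuclease, had 1327 and 1559 normalized counts in the treated mutant, 1079 and 1238 in the untreated mutant, 1398 and 1325 in treated wild type and 1209 and 1276 in untreated wild type. In both strains its treated libraries lay above the untreated ones, with log2 fold changes of 0.32 ± 0.10 in the mutant (limma adjusted p = 0.0185) and 0.13 ± 0.10 in wild type (limma adjusted p = 0.254). Under quantile normalization the values of rrp17 were 0.21 in the mutant, which did not pass the test, and -0.004 in wild type. The call in the mutant was lost without replicate 1 of the untreated mutant, at 0.22, and without replicate 2 of the treated mutant, at 0.20. The genes nop16 and rrp14, both large-subunit factors, fell in wild type by log2 fold changes of -1.28 ± 0.14 and -0.72 ± 0.11. Their changes in the mutant did not pass the test, at -0.23 ± 0.14 and -0.25 ± 0.11, although that of nop16 was called, at -0.43, without replicate 1 of the untreated mutant. That of rrp14 was called, at -0.25, without either untreated wild type library, and under quantile normalization at -0.34. The other 5 (nop8, nop12, rrp8, rrp15 and rrp16) fell in both strains, with log2 fold changes from -1.01 ± 0.12 for rrp15 to -0.43 ± 0.15 for rrp16 in the mutant and from -1.36 ± 0.15 for rrp16 to -0.91 ± 0.09 for nop8 in wild type. The mutant call of rrp16 was lost without replicate 2 of the untreated mutant or replicate 1 of the treated mutant, and its values in the 8 fits ran from -0.59 to -0.27.

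Of the 9 helicases 6 fell and 1 rose in the mutant, with a median log2 fold change of -0.95, and 8 fell and 1 rose in wild type, with a median of -1.71. The gene dbp3, for a DEAD-box helicase of large-subunit assembly, had the largest fall of all 69 genes in both strains. It had 696 and 794 normalized counts in the treated mutant, 3860.1 and 3809.9 in the untreated mutant, 713 and 783 in treated wild type and 5698 and 5853 in untreated wild type. The treated libraries of the strains overlapped, and the untreated mutant lay below untreated wild type. Its log2 fold change was -2.37 ± 0.08 in the mutant and -2.95 ± 0.08 in wild type (limma adjusted p = 7.25e-08 and 7.94e-09), which left 19.4% and 13% of the untreated means.

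The gene dbp8, for a small-subunit helicase, had 474 and 569 normalized counts in the treated mutant, 967 and 1037 in the untreated mutant, 347 and 329 in treated wild type and 1247 and 1454 in untreated wild type. The groups did not overlap, and the treated mutant lay above treated wild type. For dbp9, a large-subunit helicase gene, the counts were 1459.5 and 1507 in the treated mutant, 1489.6 and 1455 in the untreated mutant, 1116 and 977 in treated wild type and 1802 and 1855 in untreated wild type. Treated and untreated libraries differed little in the mutant, with a log2 fold change of 0.01 ± 0.08, whereas the wild type one was -0.81 ± 0.08. The mRNA export helicase gene dbp5 went the other way, with 4211 and 4056 normalized counts in the treated mutant, 3229.9 and 3382 in the untreated mutant, 3960.2 and 3902 in treated wild type and 3408 and 3582 in untreated wild type. Treated libraries lay above untreated ones in both strains, with log2 fold changes of 0.32 ± 0.06 in the mutant and 0.17 ± 0.06 in wild type. These changes were -0.067 in the mutant and -0.30 in wild type under quantile normalization, so the direction for dbp5 depends on the scaling. In wild type its call was also lost without replicate 1 of untreated wild type, at 0.13, without either treated wild type library, at 0.16 and 0.18, and without either treated mutant library, at 0.17. The genes dbp2, dbp7, dbp10 and rrp3 fell in both strains, with log2 fold changes from -1.32 ± 0.12 for dbp7 to -0.77 ± 0.08 for dbp10 in the mutant and from -2.10 ± 0.09 for rrp3 to -1.69 ± 0.08 for dbp10 in wild type. The large-subunit helicase gene dbp6 fell in wild type by -0.29 ± 0.06, and its change in the mutant, -0.05 ± 0.06, did not pass the test; under quantile normalization dbp6 fell in both strains, at -0.37 in the mutant and -0.62 in wild type.

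The exosome genes did not move together. Of the 8, 6 fell and 2 rose in the mutant, with a median log2 fold change of -0.48, and 6 fell and 1 rose in wild type, with a median of -0.81. The ring subunit gene rrp41 fell most, with 269 and 262 normalized counts in the treated mutant, 686 and 712 in the untreated mutant, 228 and 213 in treated wild type and 812 and 878 in untreated wild type. Its log2 fold change was -1.39 ± 0.09 in the mutant and -1.93 ± 0.09 in wild type (limma adjusted p = 2.11e-06 and 1.32e-07). Another ring subunit gene, rrp45, rose, with 1032 and 1149 normalized counts in the treated mutant, 551 and 557 in the untreated mutant, 987 and 992 in treated wild type and 655 and 768 in untreated wild type. All treated libraries lay above all untreated ones, and treatment gave 197% of the untreated mean in the mutant and 139% in wild type.

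The cap subunit gene rrp40 had 1349 and 1449 normalized counts in the treated mutant, 790.2 and 893 in the untreated mutant, 926 and 959 in treated wild type and 981 and 983 in untreated wild type. Treated mutant libraries were the highest, and the wild type conditions differed little. The log2 fold change of rrp40 was 0.73 ± 0.08 in the mutant (limma adjusted p = 5.01e-05) and -0.06 ± 0.08 in wild type (limma adjusted p = 0.537). The other cap gene, rrp4, fell in both strains, by log2 fold changes of -0.46 ± 0.09 in the mutant and -0.76 ± 0.09 in wild type. The gene rrp6, for the nuclear exoribonuclease attached to the ring, had 1219 and 1237 normalized counts in the treated mutant, 2015 and 2188 in the untreated mutant, 881 and 785 in treated wild type and 2457 and 2660.1 in untreated wild type. It fell in both strains, and treated wild type was lowest. The ring subunit gene rrp43 fell by a log2 fold change of -0.48 ± 0.13 in the mutant, a call lost without replicate 2 of the treated mutant at -0.34, and by -0.61 ± 0.13 in wild type. The ring genes rrp42 and rrp46 fell in both strains, to 59.1% and 72% of the untreated mean in the mutant and to 52.6% and 55.1% in wild type.

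Of the 4 genes of other function 2 rose and 2 fell in the mutant, and 2 rose and 1 fell in wild type. The importin gene imp1 had 5419.9 and 5579.8 normalized counts in the treated mutant, 4114 and 4012 in the untreated mutant, 4270.0 and 4001 in treated wild type and 3610.5 and 3672 in untreated wild type. Its log2 fold changes of 0.44 ± 0.06 in the mutant and 0.18 ± 0.06 in wild type became -0.047 and -0.29 under quantile normalization, so its direction depends on the scaling. In wild type its call was lost without any 1 of the wild type libraries other than replicate 2 of the treated ones, at 0.14 to 0.20, and without either treated mutant library, at 0.18. The ubiquitin ligase gene rrp2, 90.1% opposite other coding sequence, had 1442 and 1435 normalized counts in the treated mutant, 1149.8 and 1061 in the untreated mutant, 1381 and 1361 in treated wild type and 981 and 903 in untreated wild type, and its treated libraries were above the untreated ones in both strains. Its log2 fold changes were 0.38 ± 0.07 in the mutant and 0.54 ± 0.07 in wild type. Those of nta1, which lies opposite 89.7% of the rrp2 exon bases, were -0.09 ± 0.10 and 0.06 ± 0.10, and neither passed the test.

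The contractile ring gene imp2 had 1126 and 1064 normalized counts in the treated mutant, 1268 and 1342 in the untreated mutant, 1083 and 1065 in treated wild type and 1110.1 and 1099 in untreated wild type. The untreated mutant was highest, and the libraries of the other 3 groups spanned 1064 to 1126. The mutant log2 fold change of imp2 was -0.25 ± 0.07 (limma adjusted p = 0.00947), a call lost without replicate 2 of either mutant group at -0.21, and the wild type one was -0.04 ± 0.07. The DNA helicase gene rrp1 fell alike in both strains, to 57.2% of the untreated mean in the mutant and 59.2% in wild type. It had 317 and 331 normalized counts in the treated mutant, 636 and 495 in the untreated mutant, 379 and 402 in treated wild type and 711 and 609.9 in untreated wild type. The remaining gene, rrp1402, had 308 and 329 normalized counts in the treated mutant, 512 and 629.5 in the untreated mutant, 238 and 242 in treated wild type and 711 and 929 in untreated wild type, with treated libraries below untreated ones in both strains.

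Before treatment the mutant already had lower levels of most of these genes. In the untreated mutant 52 of the 69 genes were lower and 2 higher than in untreated wild type, with a median log2 fold change of -0.36, where 15.8% of all genes tested were lower and 22.8% higher. Under quantile normalization the split of all genes was 980 higher and 1443 lower, in place of 1145 and 792, and of the 69 genes 1 was higher and 59 were lower. Both untreated mutant libraries lay below both wild type libraries for 62 of the 69 genes, against 33.6% of all genes, and above them for 3, against 37.1%. The differences were small: the largest was that of nop10, at -0.62 ± 0.11. By role 24 of 32 small-subunit processome genes, 3 of 3 snoRNP genes, 11 of 12 large-subunit factors, 7 of 9 helicases and 6 of 8 exosome genes were lower, with medians of -0.35, -0.34, -0.51, -0.39 and -0.28. The count of 52 fell to 25 without replicate 2 of untreated wild type and to 29 without replicate 1 of the untreated mutant, and 24 of the 52 were called in each of the 8 fits without 1 library. The 2 higher calls, imp2 and rrp2, came to 1 or 0 without any 1 of the untreated or treated mutant or untreated wild type libraries.

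Among the 24, dbp3 was lower by -0.59 ± 0.08 on the log2 scale, with 3835 ± 35.5 (SD, n = 2) normalized counts in the untreated mutant and 5775 ± 109.6 in untreated wild type (limma adjusted p = 0.000554). The methyltransferase gene rrp8 had 1044 and 1091 normalized counts in the untreated mutant, against 1440.2 and 1703 in untreated wild type, a log2 difference of -0.55 ± 0.10, the largest among the large-subunit factors. For the processome gene utp23 the untreated mutant gave 865 and 935, against 1218 and 1535 in untreated wild type, a log2 difference of -0.60 ± 0.12, the largest of its class. For both genes the 2 wild type libraries differed from each other by more than the 2 mutant libraries did. The processome gene utp15 showed the smallest difference of its class, at -0.16 ± 0.07, which did not pass the test, and among exosome genes the range ran from -0.48 ± 0.13 for rrp43 to -0.18 ± 0.08 for rrp46. Some genes opposite the uncertain ones also differed here. Like rrp2, its opposite gene nta1 was higher, at 1.07 ± 0.10. Like dbp10, its opposite gene atp25 was lower, at -0.83 ± 0.07, and bem46, opposite utp24, was lower at -0.42 ± 0.06. By contrast pnk1, opposite mpp10, was higher at 0.32 ± 0.10. The main genes opposite rrp42, nop2 and rrp7 did not pass the test.

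After H2O2 the order of the strains was the other way for many of the genes. In the treated mutant 35 of the 69 genes were higher and 7 lower than in treated wild type, with a median log2 fold change of 0.20, where 26.5% of all genes were higher and 22.4% lower. Under quantile normalization the higher calls of dbp6, nop9, rrp5, rrp16, rrp41, rrp46, rrp1402, utp5 and utp502 were lost. The other higher calls and the 7 lower ones held. Both treated mutant libraries lay above both treated wild type libraries for 46 of the 69 genes, against 39.7% of all genes, and below them for 11, against 37%. By role 19 of 32 small-subunit processome genes, 5 of 12 large-subunit factors, 5 of 9 helicases and 4 of 8 exosome genes were higher, while 3 processome genes, 2 large-subunit factors, 1 exosome gene and 1 snoRNP gene were lower. Of the 35, 26 were lower in the untreated mutant and 9 were not called there (dbp6, enp2, imp1, nop14, rrp40, rrp46, utp13, utp15 and utp24). Only utp4 of the 7 lower ones held in each of the 8 fits without 1 library, and 20 of the 35 higher ones did. The count of 35 came to 20 without replicate 2 of the treated mutant, and that of 7 came to 2 to 4 without either library of either treated group or either untreated mutant library.

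**Figure D3:**
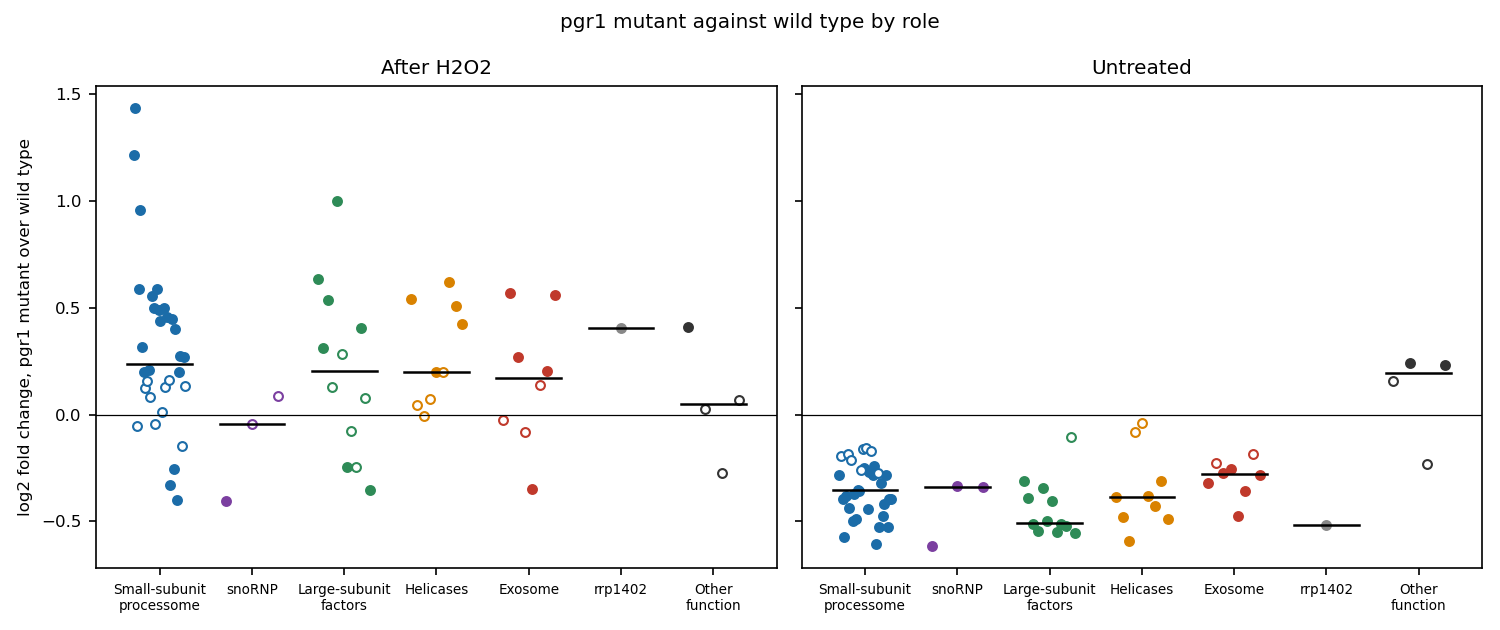
Log2 fold change of the pgr1 mutant over wild type by role, after H2O2 (left) and untreated (right); each point is a gene, filled where the adjusted p is below 0.05, and lines are medians of the role. Nearly all untreated points lie below 0, while after H2O2 the medians of the processome, large-subunit, helicase and exosome genes lie between 0.17 and 0.24.

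The largest differences after H2O2 were those of enp2, enp1, nop4 and mpp10, at 1.44 ± 0.10, 1.21 ± 0.09, 1.00 ± 0.08 and 0.96 ± 0.09 on the log2 scale, each called in every fit without 1 library. The next were nog1 at 0.64 ± 0.06, dbp8 at 0.62 ± 0.11, utp13 at 0.59 ± 0.11 and imp4 at 0.59 ± 0.15. Of these imp4 lost its call without either treated mutant library, at 0.59 each, and without replicate 2 of treated wild type, at 0.46. Among exosome genes rrp40 had 1399 ± 70.6 (SD, n = 2) normalized counts in the treated mutant and 942 ± 23 in treated wild type, and rrp6 had 1228 ± 13.1 in the treated mutant and 833 ± 68 in treated wild type. The helicase gene dbp3 was level between the strains at this time, with 745 ± 69.6 in the treated mutant and 748 ± 49.1 in treated wild type, a log2 difference of -0.01 ± 0.08. At the other end utp4 was lower in the treated mutant, at -0.40 ± 0.07 (limma adjusted p = 0.00179). The snoRNP gene nop10 was at -0.40 ± 0.11, a call lost without any 1 of the 4 treated libraries, at -0.44 to -0.37.

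For most of the genes the fall with H2O2 was smaller in the mutant, which was tested as the difference of the H2O2 responses (mutant minus wild type). This difference was above 0 for 66 of the 69 genes and passed the test as higher for 45, where 12% of all genes were higher and 15.3% lower, and its median was 0.57. At the same threshold 0 of the 69 were lower with limma, edgeR or DESeq2, and of the 3 genes with a difference below 0 an unadjusted limma p below 0.05 was found for 0. The difference was at least 2-fold for 7 genes, against 2.33% of all genes. Leaving out 1 library gave 32 to 46 genes, and 31 of the 45 were called in each of the 8 fits. The difference of responses equals the strain difference after H2O2 minus that in untreated cells. Of the 45, 33 were also higher in the treated mutant than in treated wild type. For dbp3, 1 of the 45, the mutant was at -0.59 against wild type untreated and at -0.01 after H2O2. Of the 62 genes that fell in wild type, 52 also fell in the mutant and 10 were not called there (dbp6, dbp9, enp1, enp2, nop16, nop56, nop58, rrp14, utp11 and utp16). This split depends on the scaling and the fit: of these 10, 6 (dbp6, enp1, enp2, nop56, nop58 and rrp14) were called lower in the mutant under quantile normalization, 3 (nop56, nop58 and rrp14) with edgeR and 0 with DESeq2. With the replicate number as a block 5 were called lower (nop16, nop56, nop58, rrp14 and utp16). The fit of the compared groups alone called 2 (rrp14 and utp16). Both were also called without either untreated wild type library. Without replicate 1 of the untreated mutant nop16 was called, and without replicate 2 of the untreated mutant nop58 was. Neither dbp9 nor utp11 was called lower in the mutant under any of the alternatives run.

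By role the difference was higher for 23 of 32 small-subunit processome genes, 8 of 12 large-subunit factors, 7 of 9 helicases, 5 of 8 exosome genes and 1 of 3 snoRNP genes, with medians of 0.61, 0.69, 0.58, 0.44 and 0.29. The largest was that of enp2, at 1.63 ± 0.15 (limma adjusted p = 0.000125), and next came enp1 at 1.50 ± 0.12 (limma adjusted p = 7.06e-05). The values for mpp10, nop4, imp4, nop16 and dbp8 were 1.34 ± 0.13, 1.34 ± 0.11, 1.16 ± 0.22, 1.05 ± 0.19 and 1.05 ± 0.16, and all 5 were called in each fit without 1 library. In the exosome rrp6 led with 0.85 ± 0.12, followed by rrp40 with 0.79 ± 0.11. The smallest difference in the processome was that of utp4, at 0.08 ± 0.10 (limma adjusted p = 0.632), and the 4 genes of other function did not pass the test, with values from -0.21 ± 0.10 for imp2 to 0.25 ± 0.09 for imp1. That of imp1 passed, at 0.30, without replicate 1 of treated wild type.

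**Figure D4:**
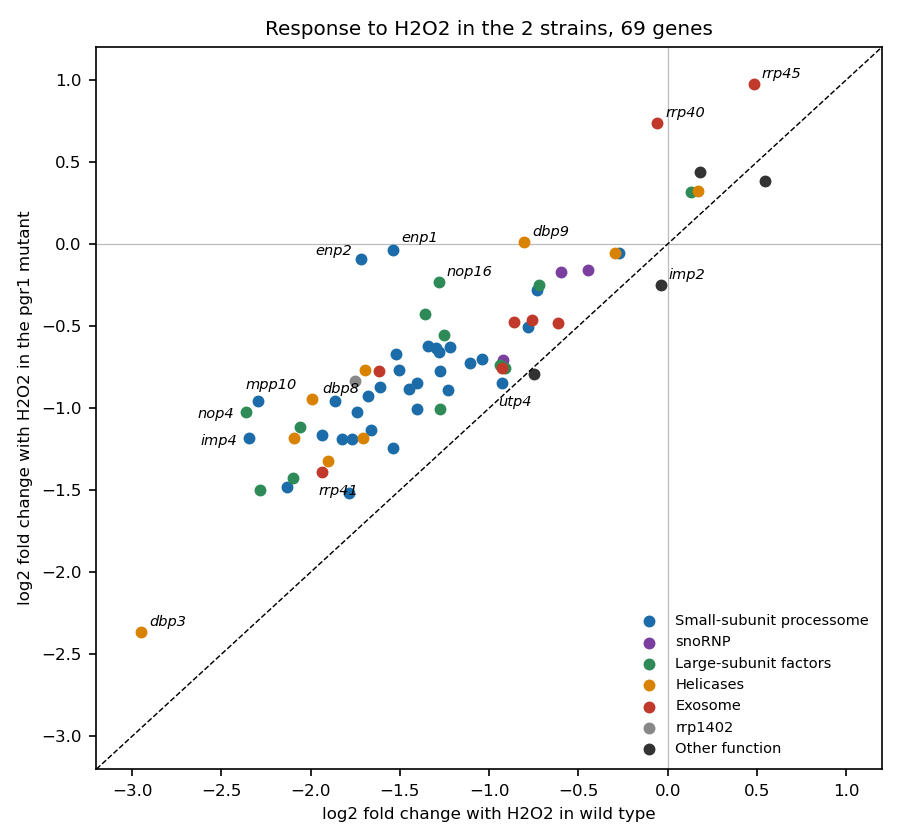
Log2 fold change with H2O2 in the pgr1 mutant (vertical axis) against wild type (horizontal axis) for the 69 genes, coloured by role, with the line of equal response dashed. Points above the line changed less negatively in the mutant; enp1 and enp2 lie farthest above it, utp4 close to it, and imp2 below it.

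Across the 69 genes the 2 responses, which share no library, ran in parallel: Pearson's r was 0.868 and Spearman's rho 0.840, against 0.832 and 0.859 across all genes tested. These are correlations across genes that share their libraries, and genes are not independent replicates. Exon length went with the response only weakly, with r of -0.130 and rho of -0.174 in the mutant and r of -0.106 and rho of -0.161 in wild type.

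Most other lists of ribosome synthesis genes held more falls than rises. Of all genes tested 32.5% fell and 35.7% rose in the mutant, and 34.6% fell and 37.7% rose in wild type. Of 45 further large-subunit factors 42 fell and 2 rose in the mutant, with a median log2 fold change of -0.97, and 44 fell and 1 rose in wild type, with a median of -1.65. Of 35 further small-subunit factors 28 fell and 1 rose in the mutant (median -0.70), and 32 fell in wild type (median -1.22). Of 16 RNA polymerase I genes 11 fell and 1 rose in the mutant (median -0.43), and 13 fell and 1 rose in wild type (median -0.55). For 18 RNA polymerase III genes the counts were 11 and 1 in the mutant (median -0.44), and 14 and 2 in wild type (median -0.86). Of 9 further exosome and TRAMP genes 3 fell and 1 rose in the mutant (median -0.06), a share of 33.3% close to the 32.5% of all genes that fell there, and 6 fell and 1 rose in wild type (median -0.38). The gene with the largest fall of these 9 in both strains, mtr4, is also counted among the 45 large-subunit factors. Of 5 pseudouridylation genes 4 fell in the mutant and 5 in wild type.

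In the deposited scaling the ribosomal protein genes themselves moved little. Of 131 tested, 28 fell and 3 rose in the mutant, with a median log2 fold change of -0.09, and 33 fell in wild type, with a median of -0.15. The shares that fell, 21.4% and 25.2%, were below those of all genes tested. Values under quantile normalization are not given for these genes. The one with the largest fall in both strains, rps1401, lies opposite another coding gene over 100% of its exons and fell by log2 fold changes of -1.16 ± 0.10 in the mutant and -1.92 ± 0.10 in wild type. The difference of responses was higher for 71 of the 109 other biogenesis genes of the RNA polymerase I, subunit factor, exosome and pseudouridylation lists, with a median of 0.57, and for 2 of the 131 ribosomal protein genes. Of all genes tested 12% were higher.

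**Figure D5:**
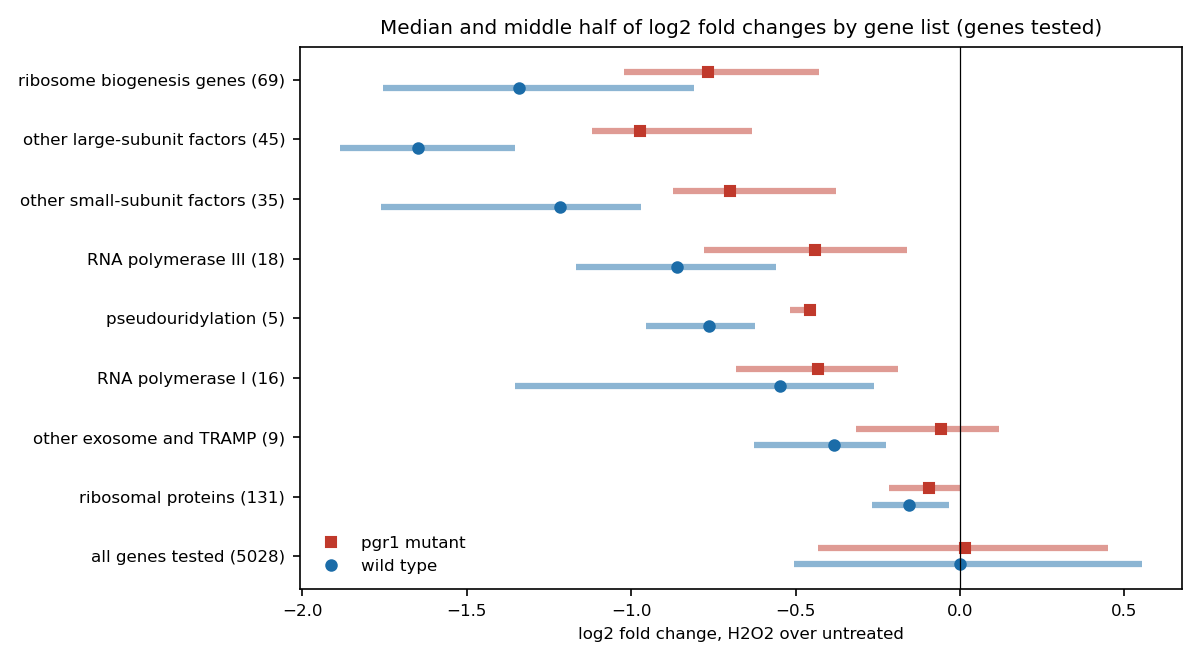
Median (symbol) and middle 50% (bar) of the log2 fold changes with H2O2 for the 69 genes, for the other lists and for all genes tested, in the pgr1 mutant (red squares) and in wild type (blue circles), with the number of genes tested in brackets. The medians of the 69 genes are -0.77 in the mutant and -1.34 in wild type, and those of ribosomal protein genes -0.09 and -0.15.

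Named genes of these lists showed the range. The large-subunit factor gene sda1 had 310.5 and 344 normalized counts in the treated mutant, 1838 and 1739 in the untreated mutant, 336 and 365 in treated wild type and 2503 and 2641 in untreated wild type, a fall to 18.3% of the untreated mean in the mutant and 13.6% in wild type. The gene nuc1, for the largest subunit of RNA polymerase I, fell to 56% in the mutant and 40% in wild type. The fibrillarin gene fib1, for the box C/D methyltransferase, fell to 76.6% in the mutant and 55.5% in wild type, and gar1, for an H/ACA protein, to 41.6% and 30.2%. The gene dis3, for the catalytic subunit of the exosome, had 2051 and 2184 normalized counts in the treated mutant, 2309 and 2102 in the untreated mutant, 1439.5 and 1453 in treated wild type and 2417 and 2492 in untreated wild type. As with enp1, treated and untreated mutant libraries of dis3 overlapped while treated wild type was lowest.

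Some genes went against their lists. The gene maf1, for the repressor of RNA polymerase III, rose, with 713 and 735 normalized counts in the treated mutant, 323 and 369 in the untreated mutant, 895 and 1105 in treated wild type and 285 and 356 in untreated wild type. The exosome ring gene mtr3 rose like rrp45, by log2 fold changes of 0.70 ± 0.06 in the mutant and 0.42 ± 0.06 in wild type. The gene sqt1, whose budding yeast counterpart is a chaperone of a large-subunit protein, had 4392 and 4756 normalized counts in the treated mutant, 3474 and 3399 in the untreated mutant, 1430.3 and 1255 in treated wild type and 2039 and 2013 in untreated wild type. The mutant was above wild type in both conditions, by log2 fold changes of 1.77 ± 0.08 after H2O2 and 0.76 ± 0.08 untreated (limma adjusted p = 5.72e-07 and 9.3e-05). Its change with H2O2 was 0.41 ± 0.08 in the mutant, where quantile normalization gave a value that did not pass the test, and -0.60 ± 0.08 in wild type.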

How the data were processed

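RNA for 8 libraries of polyadenylated RNA (2 strains, with and without H2O2, 2 libraries a group) was extracted with hot phenol and prepared with a strand-marking mRNA kit, per the labels' protocols. The submitters' processing notes name FastQC, Trimmomatic, Salmon, DESeq2 and the genome build ASM294v2, but give no settings. The deposited values are a signal per gene, namely read counts divided by a size factor of each library by the authors. Within each library at least 99.98% of the values were whole multiples of 1 step (tolerance 0.05 reads), which gave back 12026222 to 14125543 reads per library, and this depth sets the counting error.

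Of 5165 genes (1 unnamed row was left out), 5028 reached 10 in 2 or more libraries and were tested, and 137 were left out. limma 3.58.1 with trend (R 4.3.3) was fitted to log2(value + 1) with 1 mean per group over all 8 libraries, 2-sided, with Benjamini-Hochberg adjustment over all genes tested and a threshold of 0.05. Fold changes are on that log2(value + 1) scale. With 2 libraries a group all groups share 1 estimate of the spread, on 4 residual degrees of freedom before moderation. The fit was tested on simulated data with known changes. The recovered reads were also tested with edgeR 4.0.16 (quasi-likelihood, TMM), which called 1724 genes higher and 1719 lower with H2O2 in the mutant and 1836 and 1813 in wild type, and with DESeq2 1.42.0. Other alternatives were a pseudocount of 10, no filter, quantile normalization, only the groups compared, the replicate number as a block, leaving out each library, and leaving out genes of other function or marked uncertain.

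Gene names, products, exon lengths and overlaps on the opposite strand came from an annotation of assembly ASM294v3, to which 5130 IDs matched and 35 did not. Since that is not the build of the files, no coordinates or sequences are given, and the planned motif and protein checks were not run. The genes and lists were chosen with earlier results of these data known. Values in every library are given for the genes with the lowest and highest log2 fold change per role and comparison, for mpp10, nog1, imp4 and the genes of other function, and for a few more (utp10, dbp9 and rrp6, and maf1, sqt1, sda1 and dis3 of the other lists) that show the range. Of the lists, 3 names (dim1, drs1 and lsg1) were left out because their products here have another function.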

Additional observations from a re-analysis of the deposited data

Results flagged for a closer look

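The response to H2O2 differed between the strains, by the test of the difference itself (mutant minus wild type, limma adjusted p below 0.05), for 45 of the 69 genes. Among the genes described above, this difference was 1.63 for enp2, 1.50 for enp1 and 1.34 for both mpp10 and nop4 on the log2 scale. It was 1.16 for imp4, 1.05 for dbp8, 0.95 for nog1 and 0.92 for rrp1402. In the exosome it was 0.85 for rrp6, 0.79 for rrp40, 0.54 for rrp41, 0.49 for rrp45 and 0.39 for rrp46. It was 0.78 for nop52, 0.59 for utp15, 0.58 for dbp3 and 0.43 for nop58. The calls of rrp41, rrp45, rrp46, nop52 and nop58 were lost without some single libraries. Over the 8 fits that each left out 1 library, the values ran from 0.49 to 0.60 for rrp41, 0.38 to 0.61 for rrp45, 0.33 to 0.44 for rrp46, 0.62 to 0.95 for nop52 and 0.37 to 0.49 for nop58. These data hold 2 libraries a group, so no group was large enough for a search for single outlying libraries.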

How the results depend on the processing

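Over 17 alternatives the medians of the 69 genes kept their sign in each comparison fitted; the fit of the compared groups alone gives no difference of responses. Leaving out 1 library gave 5 to 6 genes higher and 51 to 55 lower with H2O2 in the mutant (median -0.80 to -0.71), and 2 to 4 higher and 61 to 62 lower in wild type (median -1.44 to -1.29). For the mutant against wild type it gave 0 to 2 higher and 25 to 52 lower untreated (median -0.40 to -0.30), and 20 to 34 higher and 2 to 5 lower after H2O2 (median 0.16 to 0.22). For the difference of responses it gave 32 to 46 higher and 0 lower (median 0.51 to 0.64). Quantile normalization left 3 genes higher with H2O2 in the mutant, 2 in wild type (median -1.47), and 1 untreated. It turned dbp5 to -0.067 in the mutant and -0.30 in wild type, and imp1 to -0.047 and -0.29; the cause was not tested. Fitting the compared groups alone gave 2 higher with H2O2 in wild type, 1 higher in the untreated mutant and 4 lower in the treated mutant. With edgeR and DESeq2 there were 2 higher with H2O2 in wild type, and with DESeq2 0 higher in the untreated mutant (limma 2). Without dbp5 and the genes of other function, 3 were higher with H2O2 in the mutant, 1 in wild type, and 0 untreated, and without the uncertain genes 1 was higher there, which follows from the genes removed. Same-numbered libraries of 2 groups deviated together to differing degrees across the 5028 genes. The correlation was 0.367 for untreated wild type with the untreated mutant, 0.339 between the wild type groups and 0.162 between the mutant groups. For the other pairs of groups it ran from -0.143 to -0.008. The replicate number thus paired some groups in part, and the main fit leaves it out. The fit with the replicate number as a block gave 58 lower with H2O2 in the mutant, 62 in wild type, 56 lower untreated, 35 higher after H2O2 and 50 for the difference of responses. Over all genes that fit called 750 higher and 934 lower for the difference of responses, in place of 605 and 767. Across 89 results for single genes, no filter and a pseudocount of 10 each changed 0 calls. The planned motif comparison was not run. Limits are 2 libraries a group and an unstated strand setting. Of the genes lower in the untreated mutant 24 of 52, and of those lower with H2O2 in wild type 61 of 62, were called in every fit without 1 library.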
